A study of Saccharomyces cerevisiae with 8 samples.

Results

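The 10 genes described here take up phosphate in budding yeast, *Saccharomyces cerevisiae*, release it from organic compounds, store it as polyphosphate, or regulate these steps: *PHO84*, *PHO89*, *PHO5*, *PHO8*, *PHO81*, *SPL2*, *VTC1*, *VTC2*, *VTC3* and *VTC4*. They were chosen by current gene symbol, among probe sets annotated to 1 gene, and all 10 had such a probe set, out of 5656 genes with one on the Affymetrix yeast array. Total RNA was measured on 8 arrays of strain 4073, which the labels give as a number with no genotype. The 4 control cultures (controls 1 to 4) received no gentamicin, and the other 4 (gentamicin 5 to 8) had been acclimated to gentamicin, an aminoglycoside antibiotic that binds ribosomal RNA, and were kept in it throughout. The dose was 500 µg/ml per the sample labels, whereas the design text gives the same number in mg per ml, so its unit is not settled. All 8 were grown overnight in YPD, a rich medium, then diluted and collected in mid-log growth, and nothing states that the 4 samples of a group came from separate experiments, so p-values measure the spread between these samples.

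Yeast senses inorganic phosphate through the PHO pathway. When phosphate is plentiful, the cyclin Pho80 and its kinase Pho85 phosphorylate the transcription factor Pho4 and keep it out of the nucleus. When phosphate is scarce, the inhibitor Pho81 holds the kinase off, and Pho4, with Pho2, switches on genes for high-affinity uptake, secreted phosphatases and polyphosphate synthesis. Polyphosphate, a chain of phosphate units kept largely in the vacuole, is made by the VTC complex and serves as a reserve. In a rich medium this program is known to be largely repressed.

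With gentamicin, the high-affinity transporter gene *PHO84*, the catalytic and small subunits of the polyphosphate synthase (*VTC4*, *VTC1*) and *SPL2* were lower, while *PHO89*, the gene of the sodium-coupled transporter, was higher. Each of these changes was under 2-fold, and the largest was 1.56-fold, for *PHO89*. Of the 10 genes, 5 passed the test, 4 lower and 1 higher (limma, adjusted p under 0.05 over 4525 tested genes). Over all tested genes 46.8% passed it, 31.3% lower and 15.5% higher. Under the deposited scaling, the share of these 10 that changed was thus close to that of the array as a whole. Their median log2 difference was -0.28, against -0.12 over all tested genes. The gentamicin values lay wholly below the control values for 5 of the 10 and wholly above for 1, against 29.6% and 15.2% of tested genes, or 44.8% in either direction. When the array medians of all probe sets were aligned, only *PHO89* and *VTC4* of the 10 still passed the test. Of the 4525 tested genes, 1369 were then higher and 547 lower.

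Signals are in arbitrary units on a linear scale, in which levels of different genes cannot be set against each other. Each array had been scaled by the authors to 1 common mean. All 10 genes were well above the controls for mouse transcripts, which read 0.696 to 17.9, and their lowest single value was 219, for *SPL2*. Array medians ran from 381 to 398 in controls and from 321 to 338 with gentamicin. The split of all called genes, 702 higher and 1415 lower, therefore depended on scaling: it was 850 and 893 after quantile normalization, and 1369 and 547 with the medians of all probe sets aligned. Under the last setting the median difference of all tested genes became 0.11, and calls of lower genes lost under it are given below. *ACT1*, the actin gene, rose 1.15-fold (log2 difference 0.21 ± 0.06 SE, limma adjusted p = 0.0183).

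**Figure D1:**
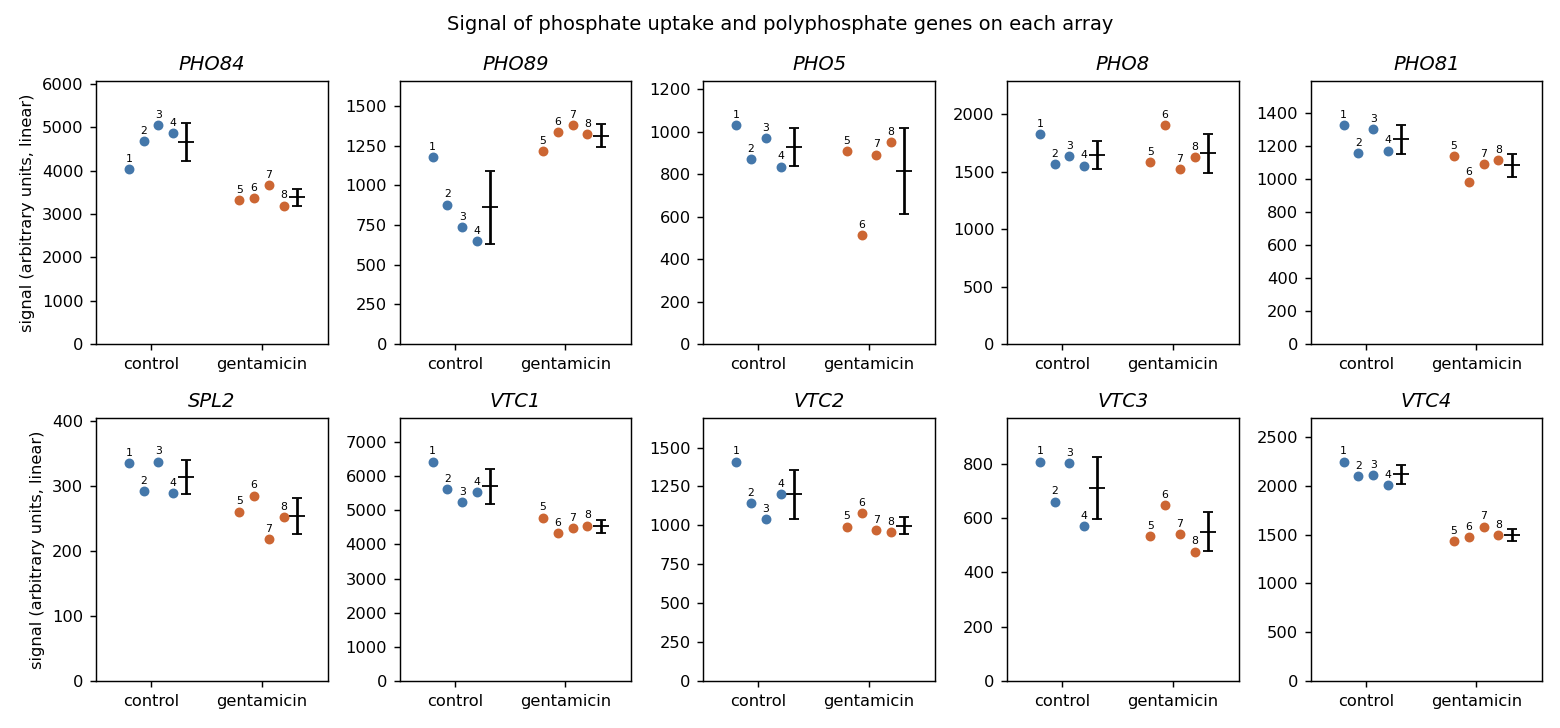
Signal of each of the 10 genes (vertical axis, arbitrary units on a linear scale from 0) on the 4 control and 4 gentamicin arrays, with array numbers beside the points and the mean ± SD (n = 4) at the right of each group. The groups separate for *PHO84*, *PHO89*, *PHO81*, *SPL2*, *VTC1* and *VTC4*, and *PHO89* alone is higher with gentamicin.

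*PHO84* (YML123C) encodes the main high-affinity phosphate transporter of the plasma membrane, a proton symporter that also acts as a phosphate sensor. Its control signals were 4030, 4692, 5058 and 4865 in controls 1 to 4, and its gentamicin signals were 3316, 3363, 3670 and 3199 in samples 5 to 8. The lowest control lay above the highest gentamicin value. The mean went from 4662 ± 447 (SD, n = 4) to 3387 ± 201, a fall of 1.37-fold (log2 difference -0.46 ± 0.08 SE, limma adjusted p = 0.00175), with a 95% interval of 1.21-fold to 1.56-fold. Relative to the median of all tested genes the difference was -0.33. A fall at least this large was seen for 18.0% of tested genes. With the medians of all probe sets aligned the difference was -0.22 and the call was lost (adjusted p = 0.0567), while with the medians of the tested genes aligned it was -0.31 and kept (adjusted p = 0.00892).

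*PHO89* (YBR296C) encodes the second high-affinity transporter, a sodium symporter that works best at alkaline pH. Its signals were 1177, 878, 737 and 650 in controls 1 to 4 and 1216, 1334, 1380 and 1323 in gentamicin samples 5 to 8. Control 1 came close to the lowest gentamicin value, and the other controls lay far below it. The mean rose 1.56-fold, from 860 ± 231 to 1313 ± 69.4 (log2 difference 0.65 ± 0.16 SE, limma adjusted p = 0.0101), with a 95% interval of 1.21-fold to 2.02-fold. Only 5.08% of tested genes had a rise this large or larger. The spread of *PHO89* among controls was the widest of the 10 genes, with a coefficient of variation of 26.9% against a median of 8.69% over tested genes, whereas among gentamicin samples it was 5.29%. Without control 1 the difference was 0.81 (adjusted p = 0.000634). The call was kept under all 4 array scalings and with each array left out in turn.

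The low-affinity transporter genes did not follow a single pattern. *PHO90*, a low-affinity transporter of the plasma membrane, fell 1.58-fold, from 1495 ± 144 to 947 ± 137 (log2 difference -0.66 ± 0.11 SE, limma adjusted p = 0.00144), a call kept under all 4 array scalings and with each array left out. *PHO87*, its close relative, fell 1.23-fold, from 1773 ± 202 to 1445 ± 157, with control 1 at 1496 below gentamicin 7 and 8 at 1612 and 1516. This call sat at the threshold (adjusted p = 0.0496) and was lost under every scaling other than the deposited one (adjusted p from 0.0741 to 0.699), and on leaving out controls 2, 3 or 4 or gentamicin 5, 6 or 8 (adjusted p from 0.0691 to 0.123). *PHO91*, a phosphate transporter of the vacuole, had signals of 1333 ± 44.1 and 1359 ± 70.0 and was not called (adjusted p = 0.755), but with the medians of all probe sets aligned it was called higher (log2 difference 0.26, adjusted p = 0.0144). *PHO86*, which is needed for Pho84 to leave the endoplasmic reticulum, fell 1.18-fold (adjusted p = 0.0208), and *SND3*, known earlier as *PHO88* and placed in the same compartment, fell 1.18-fold from 7326 ± 310 to 6219 ± 432 (adjusted p = 0.0146). With either alignment of array medians neither was called (adjusted p from 0.303 to 0.999), and *PHO86* was also not called without control 4 or gentamicin 8 (adjusted p = 0.057 and 0.064). *GIT1*, a transporter of glycerophosphoinositol, was below the signal filter at 45.2 ± 10.6 and 70.7 ± 18.5. The list of other transporters and their assembly factors holds these genes, not all of them low-affinity phosphate transporters, and *SYG1*, described at the end. Of its 7 genes, 6 were tested, 4 were lower and 0 were higher, where 31.3% and 15.5% of all tested genes were.

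*PHO81* (YGR233C) encodes the inhibitor of the Pho80 and Pho85 kinase and is itself induced when phosphate is scarce. It read 1326, 1157, 1298 and 1170 in controls 1 to 4 and 1136, 981, 1091 and 1114 in gentamicin samples 5 to 8. The groups did not overlap, but they lay close, with means of 1238 ± 86.6 and 1081 ± 68.7. The log2 difference of -0.20 ± 0.08 (SE) was not called (limma adjusted p = 0.0662), with a 95% interval from -0.37 to -0.02, and relative to the median of all genes it was -0.07.

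*SPL2* (YHR136C) encodes a small protein, induced by low phosphate, that restrains low-affinity uptake by acting on Pho87. Control signals were 336, 293, 338 and 289, and gentamicin signals were 261, 285, 219 and 252. Gentamicin 6 at 285 lay just below control 4 at 289. The mean fell 1.24-fold, from 314 ± 26.5 to 254 ± 27.6 (log2 difference -0.31 ± 0.11 SE, limma adjusted p = 0.0412). This call was lost on leaving out control 1, 2 or 3 or gentamicin 5, 7 or 8 (adjusted p from 0.055 to 0.103), and it was lost after quantile normalization, where the difference was -0.06 (adjusted p = 0.708).

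Among other regulators, the genes of the kinase and its cyclin were not called, while that of their target, Pho4, was lower. *PHO85*, the kinase, had signals of 1605 ± 95.9 and 1568 ± 155 (adjusted p = 0.754), and *PHO80*, its cyclin, had 432 ± 34.8 and 447 ± 49.7 (adjusted p = 0.744). *PHO4*, the transcription factor, fell 1.27-fold from 1250 ± 64.8 to 987 ± 99.9 (limma adjusted p = 0.0101), a call lost after quantile normalization (adjusted p = 0.0509) and with either alignment of medians (adjusted p = 0.105 and 0.421). *PHO2*, its partner, was below the filter, at 226 ± 23.0 and 160 ± 33.3.

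Genes of inositol polyphosphates were called in both directions or not at all. Through these small molecules cells report phosphate to SPX-domain proteins such as Pho81, Vtc2 and Vtc3. *KCS1*, which makes inositol pyrophosphates, fell 1.38-fold from 1284 ± 154 to 943 ± 192 (adjusted p = 0.0394), *PLC1*, the phospholipase C that starts the pathway, fell 1.26-fold (adjusted p = 0.0159), and *SIW14*, an inositol pyrophosphate phosphatase, fell 1.20-fold (adjusted p = 0.0178). *ARG82*, an inositol polyphosphate kinase, rose 1.49-fold from 242 ± 46.3 to 359 ± 61.0 (adjusted p = 0.0234), with control 4 at 294 above gentamicin 6 at 269. *VIP1*, the other inositol pyrophosphate synthase (655 ± 36.1 and 613 ± 189, adjusted p = 0.576), and *DDP1*, which hydrolyses inositol pyrophosphates (585 ± 44.6 and 590 ± 111, adjusted p = 0.986), were not called, and *IPK1*, an inositol phosphate kinase, was below the filter at 90.8 ± 13.7 and 79.8 ± 14.8. The tested probe set of *VIP1* is, by its name, of a class shared between similar sequences. It is 1 of 6 for this gene, whose log2 differences ran from -2.12 to -0.07. Another of them, at 928 ± 112 in controls, read 1.72 on gentamicin 8 against 938 to 1170 on the other gentamicin arrays. None of the 4 calls withstood every alternative. After quantile normalization and with either alignment of medians the *KCS1*, *PLC1* and *SIW14* calls were lost (adjusted p from 0.085 to 0.849). Leaving out control 1, 2 or 3 or gentamicin 8 ended the *KCS1* call (adjusted p from 0.0622 to 0.09), and without gentamicin 5, at 662 the lowest of its group, the difference moved from -0.46 to -0.30 and was still called (adjusted p = 0.0438). Leaving out control 3 ended that of *SIW14* (adjusted p = 0.052), and leaving out control 3 or gentamicin 5, 7 or 8 ended that of *ARG82* (adjusted p from 0.053 to 0.0594). Of 11 regulators, 9 were tested, 4 were lower and 1 was higher, a share near the 46.8% of all tested genes.

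The phosphatase genes of the 10 did not pass the test. *PHO5* (YBR093C) encodes the secreted acid phosphatase that is the classical readout of the pathway. Its signals were 1032, 871, 971 and 835 in controls 1 to 4 and 907, 512, 892 and 951 in gentamicin samples 5 to 8. Gentamicin 6 stood alone, and the other 3 gentamicin values lay within the range of the controls. The log2 difference was -0.22 ± 0.19 (SE, limma adjusted p = 0.362), with a 95% interval from -0.65 to 0.20, and without gentamicin 6 it was -0.01 (adjusted p = 0.924). *PHO8* (YDR481C), the vacuolar alkaline phosphatase, read 1826, 1565, 1639 and 1554 in controls and 1582, 1908, 1524 and 1630 with gentamicin. The groups overlapped throughout, with a log2 difference of 0.01 ± 0.09 (adjusted p = 0.932) and a 95% interval from -0.19 to 0.21.

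Of the other phosphatase genes, *PHO3*, *PHO13* and *PHM8* passed the test. *PHO3*, the gene next to *PHO5* on the chromosome, encodes a closely related acid phosphatase that is known to be repressed by thiamine rather than by phosphate. Its signals were 2360, 1957, 2351 and 1150 in controls and 1185, 722, 779 and 829 with gentamicin. It fell 2.18-fold (log2 difference -1.12 ± 0.24 SE, limma adjusted p = 0.00461), with control 4 just below gentamicin 5. Whether the probe sets of *PHO5* and *PHO3* tell these related transcripts apart was not tested. *PHO13*, a cytosolic phosphatase, fell 1.32-fold from 2125 ± 100.9 to 1606 ± 83.0 (adjusted p = 0.00105), a call lost with the medians of all probe sets aligned (adjusted p = 0.0921). *PHM8*, which dephosphorylates lysophosphatidic acid and nucleotides and was named for its regulation by phosphate, rose 2.08-fold. Its signals were 1033, 1072, 1178 and 1081 in controls and 2431, 2232, 2128 and 2293 with gentamicin (log2 difference 1.06 ± 0.07 SE, adjusted p = 9.4e-06). Only 1.06% of tested genes rose as much. *PHO11* and *PHO12*, nearly identical acid phosphatase genes, share 1 probe set, which read 350 ± 37.1 and 384 ± 84.9 and was not part of the test. *DIA3*, a gene related to the acid phosphatases, read 343 ± 49.5 and 403 ± 66.6 and was not called (log2 difference 0.23, adjusted p = 0.246), but was called higher after quantile normalization (0.46, adjusted p = 0.0422) and with the medians of all probe sets aligned (0.47, adjusted p = 0.0352). On this list 4 of 6 genes were tested, 2 were lower and 1 was higher, against 31.3% and 15.5% of tested genes.

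The VTC complex spans the vacuolar membrane, makes polyphosphate from ATP and passes it into the vacuole. *VTC4* (YJL012C), the catalytic subunit, read 2248, 2100, 2112 and 2008 in controls 1 to 4 and 1433, 1476, 1581 and 1491 in gentamicin samples 5 to 8. The groups lay far apart relative to their spread. The mean fell 1.42-fold, from 2117 ± 99.1 to 1495 ± 62.1 (log2 difference -0.50 ± 0.06 SE, limma adjusted p = 0.000249), which is -0.38 relative to all genes. The other probe set of *VTC4* read 1594 ± 40.01 and 1172 ± 91.8, a log2 difference of -0.45. The *VTC4* call was kept under all 4 scalings, where the difference ran from -0.50 to -0.26, and with each array left out in turn.

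*VTC1* (YER072W), the small membrane subunit, read 6427, 5613, 5231 and 5529 in controls and 4786, 4327, 4469 and 4553 with gentamicin. Every gentamicin value was below every control. It fell 1.25-fold, from 5700 ± 512 to 4534 ± 192 (log2 difference -0.33 ± 0.07 SE, limma adjusted p = 0.00547), and the call was lost with either alignment of medians (adjusted p = 0.106 and 0.426). *VTC2* (YFL004W) and *VTC3* (YPL019C) encode alternative SPX-domain subunits that give the complex different locations. *VTC2* read 1410, 1144, 1040 and 1202 in controls and 992, 1077, 969 and 958 with gentamicin, with gentamicin 6 above control 3. *VTC3* read 808, 660, 803 and 571 in controls and 534, 647, 540 and 477 with gentamicin, with gentamicin 6 above control 4. Neither was called: the log2 difference was -0.26 ± 0.10 (SE, adjusted p = 0.056) for *VTC2* and -0.36 ± 0.14 (adjusted p = 0.0526) for *VTC3*. Without control 3 *VTC2* was called (adjusted p = 0.0253), and *VTC3* was called without control 4 (adjusted p = 0.0188) or without gentamicin 6 (adjusted p = 0.0278). The difference of each of the 4 subunits was below 0 under all alternatives tried. As deposited, 2864 of 4525 tested genes were also below 0. Falls at least as large as those of *VTC2* and *VTC3* were seen for 35.6% and 25.0% of tested genes. With the medians of all probe sets aligned, the difference was -0.018 for *VTC2*, -0.089 for *VTC1* and -0.13 for *VTC3*, none of them called, and -0.26 for *VTC4*, which was called.

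Genes that break polyphosphate down went different ways. *PPN2*, a vacuolar endopolyphosphatase, rose 1.49-fold, with controls at 1070, 1164, 1163 and 1173 and gentamicin samples at 1561, 1592, 1887 and 1768 (log2 difference 0.57 ± 0.08 SE, limma adjusted p = 0.00043). *PPX1*, the cytosolic exopolyphosphatase, fell 1.39-fold from 1215 ± 44.0 to 872 ± 33.0 (adjusted p = 0.000334). Both calls were kept under all 4 scalings and with each array left out. *PPN1*, the other vacuolar polyphosphatase, read 2552 ± 319 and 2531 ± 182 (adjusted p = 0.964), and *VTC5*, an accessory subunit that stimulates the synthase, read 249 ± 15.7 and 240 ± 15.2 (adjusted p = 0.636). All 4 genes were tested, with 1 lower and 1 higher, against 31.3% and 15.5% of tested genes.

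**Figure D2:**
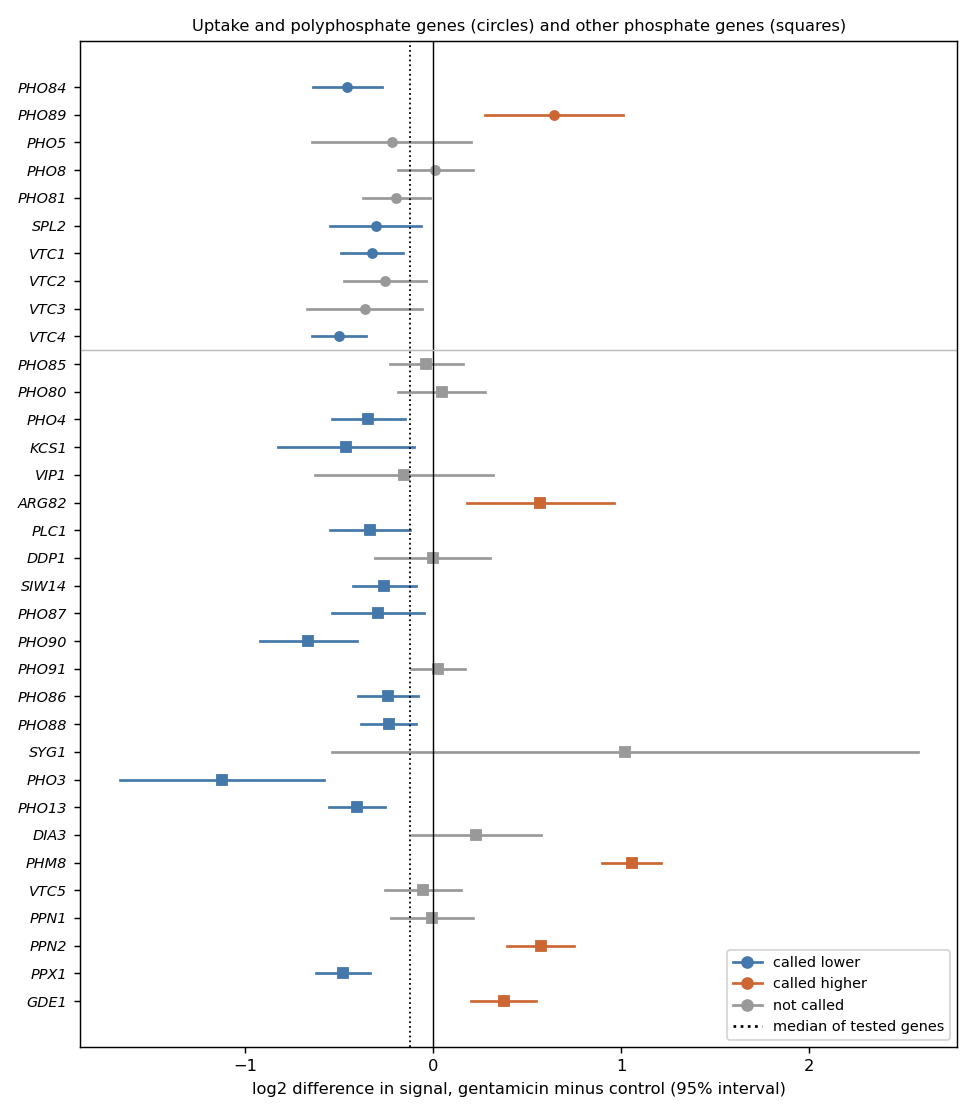
Log2 difference in signal, gentamicin minus control (horizontal axis), with its 95% interval from limma, for the 10 genes (circles, above the grey line) and for 24 other tested phosphate genes (squares; PHO88 is the older name of SND3). The dotted line is the median of all tested genes at -0.12, and *PHO89*, *ARG82*, *PHM8*, *PPN2* and *GDE1* are the called genes to the right of 0.

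Of 4 further genes known to respond to phosphate, only *GDE1* passed the signal filter. *GDE1*, which releases phosphate-bearing glycerol from a membrane lipid product, rose 1.30-fold from 473 ± 15.8 to 615 ± 44.0 (limma adjusted p = 0.00367). *PHM7* (87.9 ± 6.36 and 151 ± 22.8) and *PHM6* (74.2 ± 16.4 and 44.2 ± 12.6) were dim and were not tested. The *PHM7* values did not overlap, with controls at 82.0 to 96.4 and gentamicin samples at 135 to 185, whereas those of *PHM6* did. Of tested genes, 15.2% lay wholly higher with gentamicin. *CTF19*, a kinetochore gene next to *VTC3* and read in the opposite direction, had 149 ± 25.6 in controls and 112 ± 6.21 with gentamicin, also below the filter. Over the 5 lists together, 30 of 32 genes had a probe set of their own and 24 were tested, of which 11 were lower and 4 were higher, against 31.3% and 15.5% of all tested genes.

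A ratio of 2 signals on the same array does not change when the whole array is multiplied by 1 factor. It can change under quantile normalization, which moved the log2 difference of *SPL2* from -0.31 to -0.06 and that of *VTC1* from -0.33 to -0.40. The 10 genes were also compared pair by pair within arrays on the deposited signals, as a description with no test. The 9 pairs that include *PHO89* share its values, which already separated the groups alone, so they are not separate observations. For all 9, the ratio of *PHO89* to the other gene was higher on every gentamicin array than on any control array. Its mean change ran from 1.55-fold against *PHO8* to 2.21-fold against *VTC4*. Over all 45 pairs the groups separated for 15, or 33.3%, against 41.6% over all pairs of tested genes. Among the 36 pairs without *PHO89* they separated for 6, or 16.7%. These were *PHO8* over *PHO81*, *SPL2*, *VTC1*, *VTC3* and *VTC4*, and *PHO81* over *VTC4*. All but the last share the values of *PHO8*, so they are not separate observations either. None of the 6 pairs among the VTC subunits separated.

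The log2 ratio of *PHO84* to *PHO89* was 1.78, 2.42, 2.78 and 2.90 in controls 1 to 4 and 1.45, 1.33, 1.41 and 1.27 in gentamicin samples 5 to 8. The gentamicin arrays were nearly level while the controls spread over more than 1 log2 unit, and the mean ratio fell 2.15-fold. By contrast, the ratio of *PHO84* to *PHO90* overlapped between groups (1.64 ± 0.06 and 1.85 ± 0.14, SD), as did that of *PHO84* to *PHO87* (1.40 ± 0.05 and 1.23 ± 0.14). The ratio of *PHO5* to its neighbour *PHO3* was -1.02 ± 0.38 in controls and -0.12 ± 0.37 with gentamicin, with control 4 at -0.46 inside the gentamicin range. That of *VTC3* to its neighbour *CTF19* was 2.25 ± 0.12 and 2.29 ± 0.14. The ratio of the polyphosphate synthase gene *VTC4* to the endopolyphosphatase gene *PPN2* separated fully, at 0.89 ± 0.13 in controls and -0.18 ± 0.08 with gentamicin. *VTC4* alone was wholly lower with gentamicin and *PPN2* alone wholly higher, so their ratio had to separate. The same holds for the ratio of *PHO84*, wholly lower, to *PHO89*, wholly higher. The ratio of *VTC4* to *PPX1* did not separate (0.80 ± 0.05 and 0.78 ± 0.10). The pairs with genes outside the 10 were chosen after their values were seen.

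**Figure D3:**
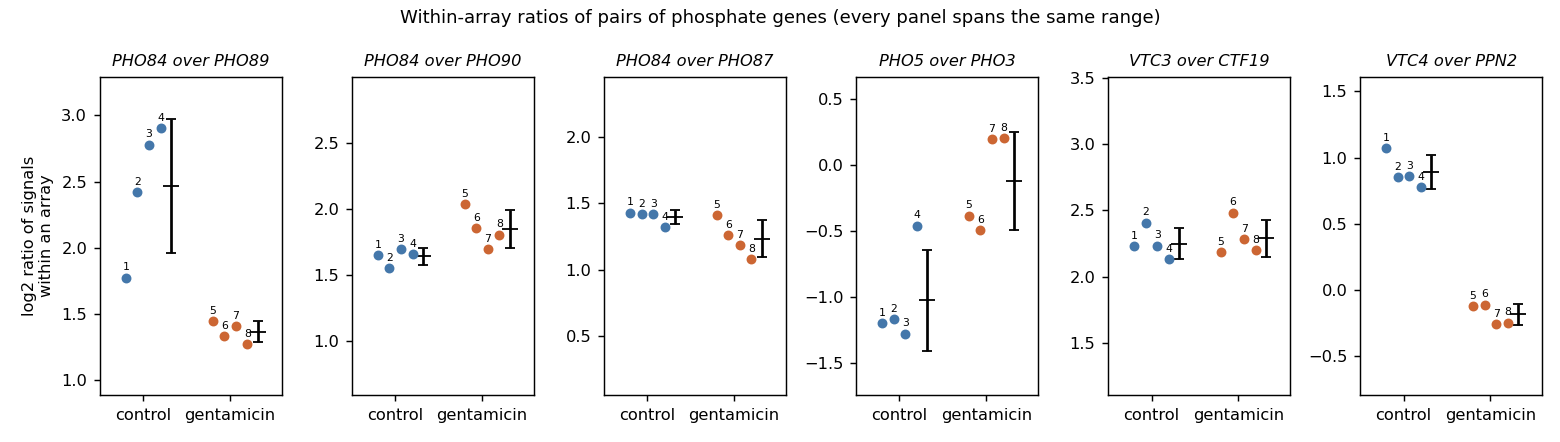
Log2 ratio of the signals of 2 genes within each array (vertical axis; every panel spans the same range) for 4 control and 4 gentamicin arrays, with array numbers and the mean ± SD (n = 4). *PHO84* over *PHO89* and *VTC4* over *PPN2* separate the groups, and the other 4 pairs do not. Both genes of each separating pair separate the groups alone, in opposite directions, so these ratios had to separate.

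Part of the spread among controls was shared between genes. Control 1 was the highest of the 4 controls for 8 of the 10 genes, whereas it was the highest for 33.2% of tested genes. The exceptions were *PHO84*, for which control 1 was the lowest of the controls, and *SPL2*, for which it lay just below control 3. *PHO90* and *PHO87* were likewise lowest in control 1, at 1282 and 1496. So were genes that are not transporters: *PPN2* at 1070, *PHM8* at 1033, *GDE1* at 453 and the untested *PHM7* at 82.0. The share of all tested genes lowest in control 1 was not counted. The coefficient of variation in controls was 4.68% for *VTC4*, 13.0% for *VTC2* and 16.3% for *VTC3*. Without control 1 the log2 difference was -0.53 for *PHO84* and -0.47 for *VTC4*, and it was -0.17 for *VTC2* (adjusted p = 0.104).

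Profiles over the 8 arrays, with each gene centred on its control mean, were compared by the root mean square difference of log2 signal. The genes nearest to *PHO84* outside the 10 were *SLA2*, an actin-binding protein of endocytosis (0.04 log2 units), *HTZ1*, a histone variant (0.06), and *SHE2*, which carries mRNA to the bud (0.06). Nearest to *VTC4* were *NOP19*, a nucleolar protein (0.02), *ZRT1*, the high-affinity zinc transporter (0.04), and *SEY1*, which fuses endoplasmic reticulum membranes (0.04). Nearest to *VTC1* were *MES1*, methionyl-tRNA synthetase (0.04), *SMD3*, a splicing protein (0.04), and *ERG11*, a sterol synthesis enzyme (0.04). These genes were lower by 1.22-fold to 1.43-fold, which the choice by likeness fixes. No gene of the phosphate lists was among them, but only 24 such genes were among the 4525 tested, so their absence says little.

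**Figure D4:**
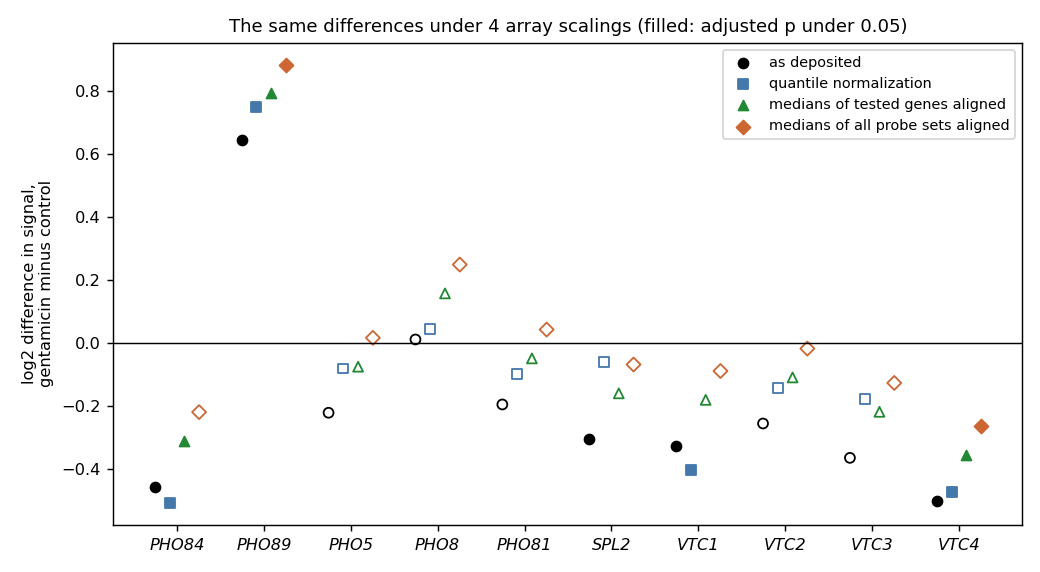
Log2 difference, gentamicin minus control (vertical axis), of the 10 genes under the deposited scaling and 3 others, with filled symbols for an adjusted p under 0.05. *PHO89* and *VTC4* are called under all 4, *PHO84* under all but the alignment of all probe set medians, and *SPL2* under the deposited scaling alone; *PHO5* and *PHO81*, not called, change sign under that alignment.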

How the data were processed

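The authors deposited 1 linear intensity for each probe set on each array; MAS5 is the tool named, without a version, per the submitters' processing notes. No genome build is named, so no coordinates are given. The mean without the lowest and highest 2% was 1001 on each array, so the authors' intensities had been scaled. The table holds 9335 probe sets, 60 of them array controls. Names came from the platform annotation, updated by gene identifier to the R64 table: 6504 probe sets list 1 gene, 328 several and 2443 none.

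Here, signals were converted to log2 without an offset, the probe set with the highest mean stood for a gene, and the lowest 20% of genes were left out, which left 4525. The 4 gentamicin arrays were compared with the 4 controls in limma 3.58.1 (R 4.3.3) with trended eBayes variances, and p-values were adjusted by Benjamini-Hochberg over all tested genes. The labels give no batch, and the groups share no replicate numbers. Simulated data with the spread of these arrays, over 4525 genes of which 100 were changed by each fold, gave 76% of 1.5-fold and 94% of 2-fold changes called. There were 11 false calls of 181. In the data 46.8% of tested genes were called, so these rates may not carry over, and changes below 1.5-fold were not simulated. The number of arrays limits the precision. The genes and lists were chosen with earlier results of these data known, so no test over the lists was made and none of it is independent evidence. All 10 genes, every called gene of the lists and the first genes of each list are named, as are, by likeness, 3 genes each for *PHO84*, *VTC4* and *VTC1*. *SYG1*, *VIP1*, *DDP1*, *IPK1* and *DIA3* were named after their values were seen. Alternatives were 2 scalings, an offset, 2 filters, no variance trend, the median over probe sets, each array left out and an adjusted p under 0.01; aligning the medians of tested genes was added after seeing the data.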

Additional observations from a re-analysis of the deposited data

Results flagged for a closer look

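Of 80 gene and group combinations checked, 3 had 1 sample far from the other 3 of its group, and chance alone gives about 1 in 20. *PHO5* had 512 in gentamicin 6, against 892 to 951 in the other gentamicin samples, a gap of 0.864 of the group's range. *GIT1*, below the signal filter, had 98.4 in gentamicin 5, against at most 64.3 in the others (0.877 of the range). *PPN2* had 1070 in control 1, against 1163 to 1173 in the other controls (0.895 of the range), and its difference without control 1 was 0.54 on the log2 scale (adjusted p = 0.0012).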

How the results depend on the processing

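*PHO89* and *VTC4* kept their direction and call under all 16 alternatives at an adjusted p under 0.05, and *VTC4* also at 0.01, where *PHO89* (0.0101) was not called. Of the 10 genes, 5 were called as deposited, where 702 of 4525 tested genes were higher and 1415 lower. With the medians of all probe sets aligned 2 were called (1 lower), where 1369 tested genes were higher and 547 lower. With those of the tested genes aligned 3 were called (2 lower), where 1081 tested genes were higher and 800 lower. At an adjusted p under 0.01, 3 were called and 0 were higher, where 490 tested genes were higher and 916 lower. Leaving out 1 array gave 4 to 6 called, 3 to 5 of them lower. Over all tested genes it gave 603 to 693 higher and 1209 to 1359 lower. Of the 24 other phosphate genes tested, 15 were called, 11 of them lower. Without the signal filter 19 of 30 were called, 13 of them lower, while over all 5656 genes 1672 were lower and 748 higher. The medians of all probe sets aligned gave 9 called and 3 lower, those of tested genes 8 and 4, and an adjusted p under 0.01 gave 7 and 4. Quantile normalization gave 6 lower, where 893 of all tested genes were lower and 850 higher. For the other settings the counts over all tested genes are given above, and there too fewer were lower than as deposited. Leaving out 1 array gave 11 to 14 called, 8 to 11 of them lower. Genes that changed sign were not called in either case, and the cause was not tested. With the medians of all probe sets aligned, the log2 difference became 0.016 for *PHO5*, 0.042 for *PHO81*, 0.20 for *PHO85*, 0.083 for *VIP1*, 0.23 for *DDP1*, 0.18 for *VTC5* and 0.23 for *PPN1*. With those of tested genes aligned it became 0.11 for *PHO85*, 0.14 for *DDP1*, 0.090 for *VTC5* and 0.14 for *PPN1*, and after quantile normalization 0.0025 for *PHO85*, 0.034 for *VIP1*, 0.20 for *DDP1* and 0.18 for *VTC5*. Over the arrays left out in turn, the difference ran from -0.058 to 0.062 for *PHO8* (below 0 without control 2 or 4 or gentamicin 6), from -0.095 to 0.021 for *PHO85* (above 0 without gentamicin 6), from -0.0059 to 0.115 for *PHO80* (below 0 without gentamicin 5), from -0.32 to 0.20 for *VIP1* (above 0 without gentamicin 8), from -0.10 to 0.12 for *DDP1* (above 0 without control 1, 2 or 3 or gentamicin 7 or 8), from -0.00060 to 0.051 for *PHO91* (below 0 without gentamicin 6) and from -0.069 to 0.073 for *PPN1* (above 0 without control 1 or gentamicin 5 or 7). No paired analysis was possible because the groups share no replicate numbers.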

Other observations

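*SYG1*, a plasma membrane protein with an SPX domain, read 239 in control 3 and 2169 to 2872 in the other controls, against 2596 to 3056 with gentamicin. Its log2 difference was 1.02 (adjusted p = 0.256), and 0.17 without control 3 (adjusted p = 0.229).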
